A study of Rattus norvegicus with 4 samples.

Results

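The contactins and the contactin-associated proteins (Caspr proteins) were followed by name in the deposited gene count table. The genes were Cntn1 to Cntn6, Cntnap1, Cntnap2 and Cntnap4. Each of these 9 names matched 1 gene identifier of 21648 in the table, and all 9 were among the 12162 genes that passed the filter on low counts. RNA had been sequenced from primary cultures of rat cortex neurons taken at embryonic day 18 (BrainBits, E18 rat cortex). Plating was in a medium for neural induction, and after 24 hours the cells were kept in BrainPhys medium with SM1. One group received DMSO, the solvent, and the other topotecan, an inhibitor of topoisomerase I that the submitters used to lower the expression of long genes. The sources used here give no strain, genotype, dose or exposure time, and the cells are a bought primary culture and not a pure cell type. There were 2 libraries per group, and the labels do not say that they came from separate cultures, so p-values reflect only how far these samples spread, and that spread may be technical.

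Contactins are adhesion proteins of the immunoglobulin superfamily, built of immunoglobulin-like and fibronectin type III domains and held to the outer membrane by a GPI anchor. They have no intracellular part and bind in cis to transmembrane partners, among them the Caspr proteins, which resemble neurexins. In myelinated axons Contactin-1 and Caspr form the axonal side of the paranodal junction beside the node of Ranvier, and Contactin-2 and Caspr2 hold Kv1 potassium channels in the neighbouring juxtaparanode. Before myelin forms, the same proteins act in axon outgrowth, fasciculation and synapse formation.

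Most of these genes were lower in topotecan, by amounts that ranged widely. Of the 9 members 7 passed as lower and 0 as higher (edgeR's quasi-likelihood test with Benjamini-Hochberg adjustment over all genes tested, threshold 0.05), beside 23.5% lower and 16.2% higher among all 12162 genes tested. The median log2 fold change of the members was -1.04, and that of all tested genes -0.01. Cntnap2 had the largest fall, to 4.70% of DMSO, followed by Cntn4 at 19.1%. Cntnap2 had passed the filter only through its DMSO libraries. Cntn5 and Cntn6 were at 37.3% and 38.0%, and Cntnap4 and Cntn1 at 48.5% and 50.4%. Cntnap1 was at 64.2% and depended on the settings, while Cntn2 and Cntn3 did not pass. In 8 of the 9 genes both topotecan libraries lay below both DMSO libraries, which was so for 36.9% of all tested genes. Scaling the libraries to 21 short neuronal genes shifted the median over all genes to -0.30 on the log2 scale and the share of lower genes among all calls from 59.2% to 94.3%. Of the 27 tested genes on the list that these 21 came from, 10 were higher and 3 lower in topotecan before that scaling. It moved log2 fold changes downward throughout. The 7 members lower in topotecan could thus only fall further with it, and that they also passed adds no support.

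The libraries held between 22957786 and 31181382 gene counts. The 10 pan-neuronal markers were all expressed (3 rose and 3 fell) and summed to 20320 to 21810 CPM (counts per 1000000 library counts, scaled by TMM) in DMSO and 23255 to 24348 CPM in topotecan. DMSO cultures also held glial RNA. All 12 astrocyte markers fell, and their sum went from between 4577 and 4771 CPM to between 374 and 413 CPM. All 12 oligodendrocyte lineage markers fell as well, from between 4059 and 4367 CPM in sum to between 123 and 136 CPM, with Sox10 at 0 counts in both topotecan libraries. Of 7 tested progenitor markers 6 fell. Glutamatergic markers (5 of 8 higher, none lower) and interneuron markers (4 of 9 tested higher, 2 lower) moved otherwise. Of 8 microglia markers with a row 5, Aif1, Cx3cr1, Tmem119, C1qa and C1qb, had no count in any library, and endothelial and fibroblast or mural markers each summed to less than 5 CPM. In bulk RNA, fewer cells of a type and less RNA per cell cannot be told apart. Members expressed by glia as well as neurons share these libraries, and the part of the glial loss in their values was not tested.

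**Figure D1:**
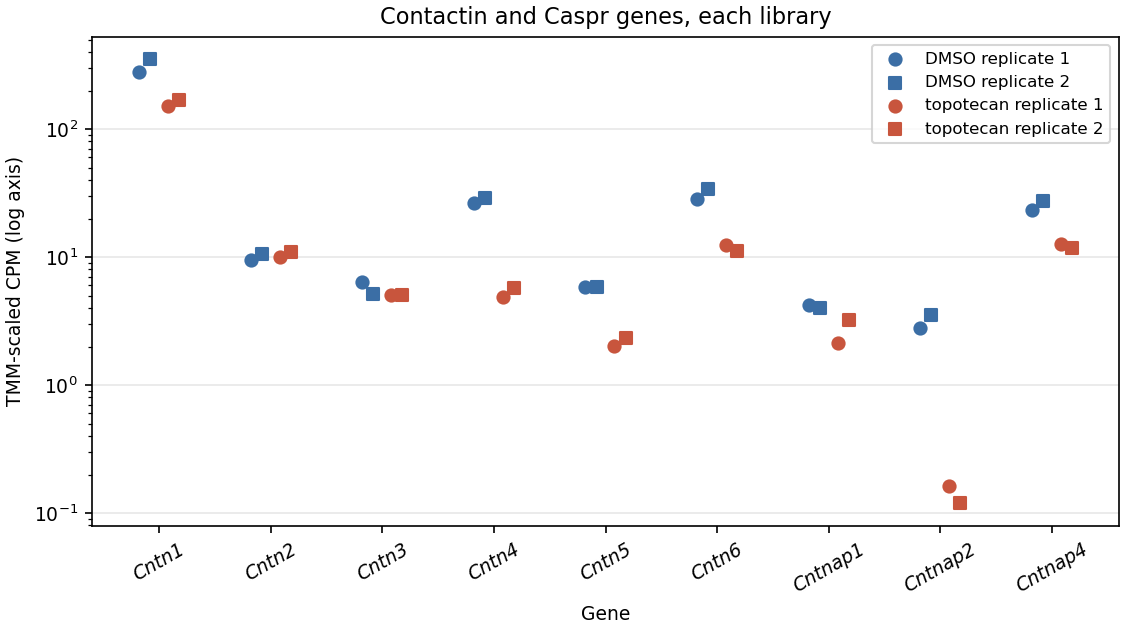
TMM-scaled CPM on a log axis for each of the 9 genes, with 1 point per library (blue DMSO, red topotecan; circles replicate 1, squares replicate 2). The red points lie below the blue ones in every gene except Cntn2, where they overlap, and the gap is widest in Cntnap2.

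Cntn1 (ENSRNOG00000004438) codes for Contactin-1, also called F3. It is the partner of Caspr at the paranode and a ligand of Notch receptors and of the receptor phosphatase Ptprz1, made by neurons and by cells of the oligodendrocyte lineage. Its CPM was 277 and 353 in the DMSO libraries and 150 and 168 in the topotecan libraries. The DMSO libraries thus differed from each other by more than the topotecan ones did, and the groups did not overlap. The log2 fold change was -0.99 (SE 0.11, edgeR adjusted p = 6.1e-06). Cntn1 made up between 72.2% and 76.9% of the counts on the 9 genes in every library, so the sum over the family, 384 and 472 CPM in DMSO and 200 and 218 CPM in topotecan, was largely that of Cntn1. Without Cntn1 the other 8 summed to 107 and 119 CPM in DMSO and 49.4 and 50.4 CPM in topotecan. Counts per gene also depend on transcript length, which was not used here, so levels of different genes are not ranked.

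Cntn4 (BIG-2, ENSRNOG00000005652), an axonal contactin known from the wiring of olfactory and visual axons and a candidate gene in autism, had the largest fall of the 6 contactins. Its counts were 728 and 677 with DMSO and 150 and 144 with topotecan, or 26.4 and 29.0 CPM against 4.89 and 5.71 CPM. The groups were far apart relative to the spread within each, with a log2 fold change of -2.39 (SE 0.15, edgeR adjusted p = 1.7e-08). Cntn5 (NB-2, ENSRNOG00000007038), a contactin of the auditory pathway and of retinal circuits, and Cntn6 (NB-3, ENSRNOG00000032517), known from the cerebellum and the corticospinal tract, changed by nearly the same factor as each other. Cntn5 was at 5.80 and 5.87 CPM in DMSO and 2.02 and 2.34 CPM in topotecan, a log2 fold change of -1.42 (SE 0.21, adjusted p = 9.2e-05). Cntn6 was at 28.6 and 33.8 CPM in DMSO and 12.4 and 11.2 CPM in topotecan, a log2 fold change of -1.40 (SE 0.13, adjusted p = 1.9e-06). In both genes every topotecan library lay below every DMSO library.

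The remaining contactins did not pass. Cntn2 (TAG-1, ENSRNOG00000009033) marks growing axons early and is later the juxtaparanodal partner of Caspr2. Its counts were 264 and 247 with DMSO and 305 and 275 with topotecan. Its CPM was 9.57 and 10.6 against 9.95 and 10.9, so the groups overlapped. The log2 fold change was 0.05 with a 95% interval from -0.27 to 0.37 (edgeR adjusted p = 0.82), and its sign turned to -0.25 when libraries were scaled to short neuronal genes. For Cntn3 (BIG-1, ENSRNOG00000006144), a contactin of forebrain and hippocampal neurons, the counts were 175 and 120 with DMSO and 155 and 128 with topotecan. Its CPM was 6.35 and 5.14 against 5.06 and 5.08, and the lower DMSO library lay just above the topotecan libraries. The log2 fold change of -0.19 had a 95% interval from -0.58 to 0.21 (adjusted p = 0.46). These intervals exclude a change as large as those of Cntn4, Cntn5 and Cntn6, and they leave room for smaller falls in Cntn3.

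Among the Caspr genes Cntnap2, which codes for Caspr2, the organiser of Kv1 channels and an autism and epilepsy gene, fell the most. Its counts were 77 and 82 with DMSO and 5 and 3 with topotecan, or 2.79 and 3.51 CPM against 0.163 and 0.119 CPM, far below either DMSO library. The log2 fold change was -4.41 (SE 0.41, edgeR adjusted p = 1.1e-06). Its topotecan counts were under the filter's minimum of 10, so it was tested only through DMSO, the group where it is high. It could thus be called lower or not at all, and could not be called higher. The summed counts of 159 and 8 gave a ratio of 21.8 after scaling, with an exact 95% interval from 10.8 to 51.4 that covers counting error only. The table classes this row (ENSRNOG00000006617) as a processed transcript and not as a protein-coding gene, so its counts may not cover the whole coding transcript of Cntnap2.

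Cntnap4 (ENSRNOG00000011231) codes for Caspr4, a presynaptic protein of interneurons and dopamine neurons. It was at 23.3 and 27.4 CPM in DMSO and 12.8 and 11.8 CPM in topotecan, with a log2 fold change of -1.04 (SE 0.14, edgeR adjusted p = 3.6e-05). Its groups did not overlap. Of the 9 tested interneuron markers in the same libraries Gad1 and Gad2, the enzymes of GABA synthesis, fell, and Sst, Lhx6, Dlx1 and Npy rose. Cntnap1 (ENSRNOG00000020277) codes for Caspr, the paranodal partner of Contactin-1. It was at 4.21 and 4.03 CPM in DMSO and 2.12 and 3.21 CPM in topotecan, so the topotecan libraries differed from each other by more than the DMSO libraries did. The log2 fold change was -0.64 (SE 0.24, edgeR adjusted p = 0.045, between 0.0016 and 0.40 over 12 alternatives). Without topotecan replicate 1 it was -0.35, and the call was lost there, without either DMSO library (-0.60 without replicate 1 and -0.67 without replicate 2), with RLE scaling and with DESeq2. Cntnap1 shares its place on the RefSeq map with the short gene Ccr10, and the sources used here do not say whether counting used the strand.

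**Figure D2:**
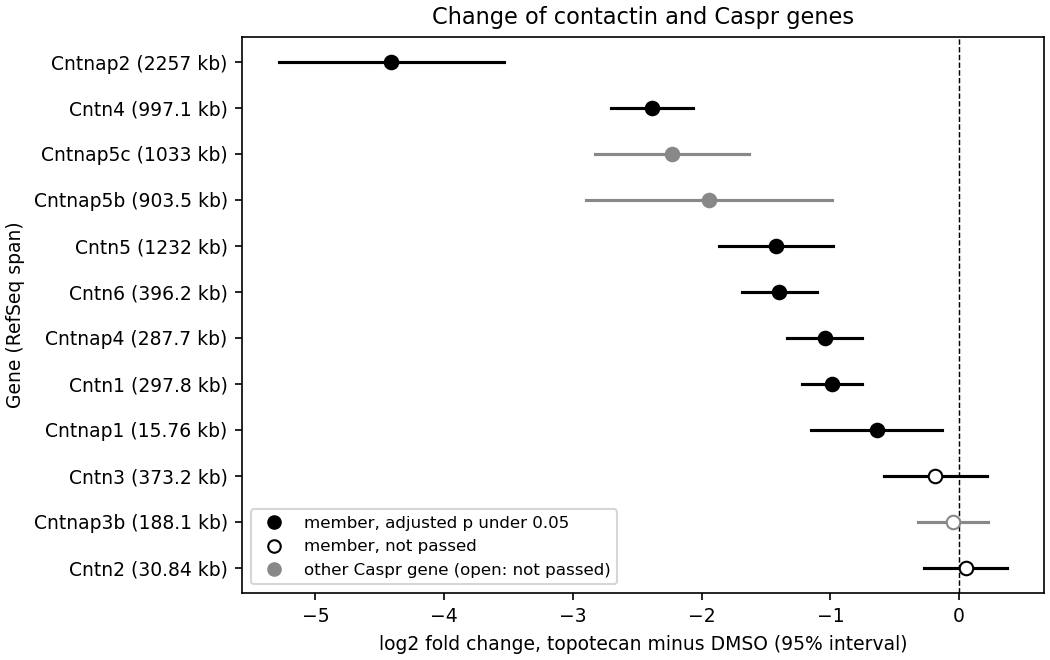
Log2 fold change (topotecan minus DMSO) with its 95% interval for the 9 genes (black) and 3 further Caspr genes (grey), with the RefSeq span in parentheses. Filled points passed at an adjusted p under 0.05, and the open points of Cntn2, Cntn3 and Cntnap3b have intervals that include 0.

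The table held further Caspr genes that are not among the 9. Cntnap5c and Cntnap5b belong to a set of rodent Caspr5 copies, similar in sequence, between which reads can be divided wrongly. Cntnap5c was at 5.51 and 7.45 CPM in DMSO and 0.979 and 1.82 CPM in topotecan, a log2 fold change of -2.23 (SE 0.28, edgeR adjusted p = 2.4e-05). Cntnap5b, with 40 and 42 counts against 7 and 16, had a log2 fold change of -1.95 (SE 0.44, adjusted p = 0.0033). Another row described as similar to Caspr5, LOC304725, had 9 and 15 counts against 2 and 5 and was too low to test. The row named Cntnap3b did not pass, with 27.7 and 34.6 CPM against 29.3 and 30.9 CPM and a log2 fold change of -0.05 (95% interval from -0.32 to 0.23).

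Gene span, the distance from the first to the last base of the gene in the RefSeq annotation of GRCr8, ranged from 15.8 kb for Cntnap1 to 2257 kb for Cntnap2. Of the 7 members of 100 kb or more 6 were lower in topotecan, beside 43.5% of all 1898 tested genes of that size, whose median log2 fold change was -0.34. None of the 7 lay between 100 and 200 kb, where 31.6% of 1119 tested genes were lower. Span and log2 fold change had a Spearman's rho of -0.83 across the 9 genes, given as a description over genes measured in the same 4 libraries. For Cntnap2 the span is that of the RefSeq gene, while the counted row is classed as a processed transcript. The 3 members of 500 kb or more, Cntn4, Cntn5 and Cntnap2, stood beside a median of -1.19 for the 176 tested genes of that class (quartiles -1.76 and -0.64). Cntn5 lay between those quartiles, and Cntn4 and Cntnap2 lay below them. All 3 passed as lower, as did 77.8% of that class. For the 603 tested genes of 200 to 500 kb the median was -0.54 (quartiles -0.995 and -0.16). There Cntn1 (298 kb) and Cntn3 (373 kb) fell between the quartiles, and Cntnap4 (288 kb) and Cntn6 (396 kb) below them. Cntn1 (-0.988) and Cntnap4 (-1.04) both lay close to the lower quartile. In that class 55.6% of genes were lower, and of its 4 members all but Cntn3.

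The order of the members by RefSeq span was not the same as their order by log2 fold change, and the cause was not tested. Cntn3 and Cntn6 differ little in span on the map. Cntn3 had a log2 fold change of -0.19 and Cntn6 one of -1.40, with 95% intervals that do not overlap. Cntn5 is longer than Cntn4 on the map and had the smaller fall. The shortest member, Cntnap1, had a log2 fold change of -0.64, where tested genes of 10 to 30 kb had a median of 0.06 (quartiles -0.29 and 0.29). Cntn2 (30.8 kb) lay inside the quartiles of its class of 30 to 100 kb, -0.44 and 0.17. RefSeq spans run to the outermost start, and the start used in these neurons is not known. Measured from the start of the RefSeq promoter window, which lies inside the span, Cntn5 was 715 kb, Cntn3 284 kb and Cntn1 188 kb, and Cntn4 and Cntn6 were nearly unchanged at 997 and 396 kb. From those starts Cntn4 was the longest of the contactins, and Cntn3 and Cntn6 differed more in length than on the map. Cntn1 was shorter than Cntn3 by either measure and had the lower log2 fold change, -0.99 beside -0.19.

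**Figure D3:**
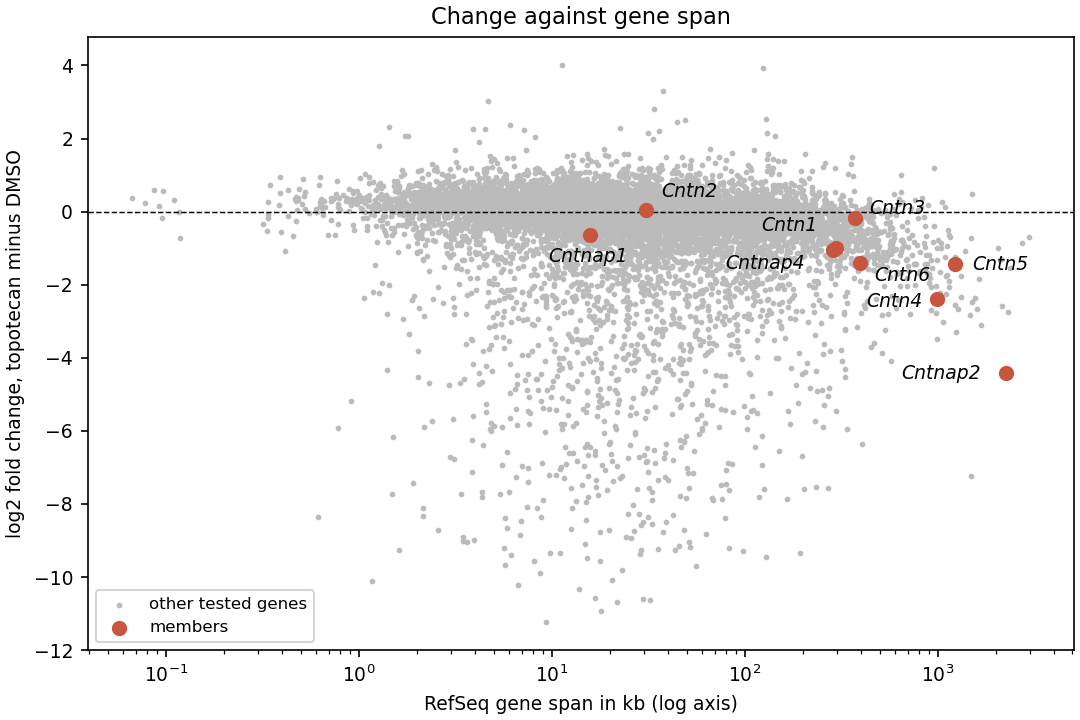
Log2 fold change (topotecan minus DMSO) against RefSeq gene span on a log axis, with the 9 members in red and all other tested genes with a known span in grey. Cntnap2 and Cntn4 lie at the lower right, Cntn3 lies near 0 at 373 kb, and the many grey points far below 0 at short spans include the glial markers.

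On the RefSeq map 3 contactin genes follow one another on chromosome 4, with only Chl1 between them among protein-coding genes, in the order Cntn3, Chl1, Cntn6 and Cntn4. Chl1 codes for an adhesion protein of the L1 family that, like the contactins, carries immunoglobulin and fibronectin domains. The neighbours did not change alike. Chl1, which spans 214 kb, was at 156 and 186 CPM in DMSO and 173 and 169 CPM in topotecan. Its log2 fold change was 0.00 (95% interval from -0.19 to 0.20). The log2 fold changes along the run were thus -0.19, 0.00, -1.40 and -2.39. On chromosome 13 Cntn2 lies next to Nfasc (neurofascin, the binding partner of the Contactin-1 and Caspr complex and a core protein of the node). Nfasc was at 92.9 and 106 CPM in DMSO and 29.6 and 33.7 CPM in topotecan, a log2 fold change of -1.65 (SE 0.11, edgeR adjusted p = 3.4e-08), beside 0.05 for Cntn2. The part of the glial loss in the Nfasc value was not tested.

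Sequence upstream of the start is shown for the contactin that fell most and for one that did not pass, since only these 2 of the 6 members with a RefSeq promoter window have a stretch of it outside the annotated gene. Both begin 250 bases before the start used by RefSeq (GRCr8) and are read 5′ to 3′ on the gene's strand, with CG dinucleotides in capitals. The Cntn4 stretch is chr4:140180571-140180695 on the plus strand and the Cntn2 stretch is chr13:46528151-46528275 on the minus strand.
Cntn4: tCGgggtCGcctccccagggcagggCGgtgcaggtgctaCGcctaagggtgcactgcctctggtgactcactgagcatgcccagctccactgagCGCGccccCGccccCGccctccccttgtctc
Cntn2: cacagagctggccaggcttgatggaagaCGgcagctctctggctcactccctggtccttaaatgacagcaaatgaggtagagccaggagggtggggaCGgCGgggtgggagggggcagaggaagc
The Cntn4 stretch holds 8 CG dinucleotides and the Cntn2 stretch 3. At least 8 were found in 18.2%, and at least 3 in 47.1%, of the same stretch in 33469 RefSeq promoter windows. The GC box GGGCGG occurs 1 time on the gene's strand and 2 times on the other strand for Cntn4. It has no match for Cntn2, and 13.3% of all windows hold it in this stretch on either strand. These counts describe the letters only.

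Ratios between members within 1 library do not depend on how libraries are scaled. Per 1000 counts of Cntn1, Cntn2 had 34.5 and 29.97 in the DMSO libraries and 66.2 and 65.0 in the topotecan libraries. Cntn3 had 22.9 and 14.6 against 33.7 and 30.3. Both thus gained relative to Cntn1 without overlap between the groups. Cntn4 went the other way, from 95.1 and 82.1 to 32.6 and 34.05, and Cntnap2 from 10.1 and 9.95 to 1.09 and 0.709. For Cntnap4 (84.0 and 77.7 against 84.9 and 70.2) and Cntnap1 (15.2 and 11.4 against 14.1 and 19.2) the groups overlapped. The ratio of the paranodal pair Cntnap1 and Cntn1 thus overlapped between the groups, whereas of the juxtaparanodal pair Cntn2 gained and Cntnap2 lost relative to Cntn1. These ratios are given as a description, without a test.

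**Figure D4:**
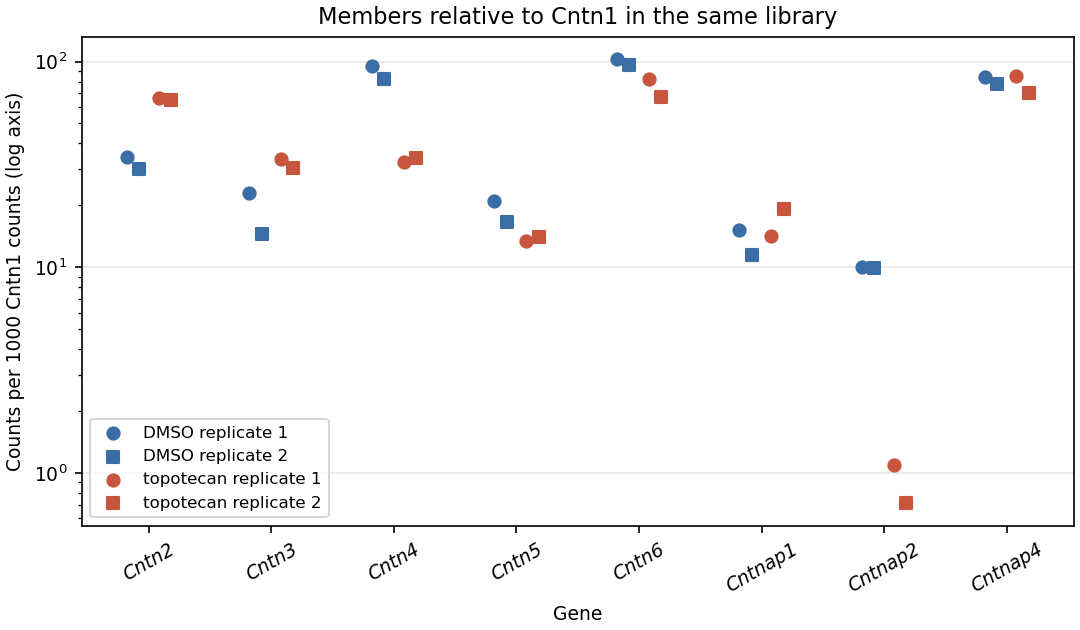
Counts of each member per 1000 Cntn1 counts of the same library, on a log axis (blue DMSO, red topotecan; circles replicate 1, squares replicate 2). Cntn2 and Cntn3 lie higher in topotecan, Cntn4, Cntn5, Cntn6 and Cntnap2 lower, and Cntnap1 and Cntnap4 overlap.

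Partner lists are read beside the 23.5% lower and 16.2% higher of all tested genes, and beside 43.5% lower for genes of 100 kb or more. Of the 3 L1 family genes with a row, all of that size, 2 fell, Nfasc and Nrcam, which codes for a partner of contactins at nodes and in growing axons. Nrcam was at 239 ± 31.8 CPM in DMSO and 106 ± 2.61 CPM in topotecan (SD, n = 2 each), a log2 fold change of -1.17 (SE 0.10, edgeR adjusted p = 3.5e-07). Of 9 tested phosphatases, extracellular ligands and receptors 7 fell (5 of the 6 of 100 kb or more, beside 43.5%), and Aplp1 rose. Their median log2 fold change was -1.32. Ptprz1, a receptor phosphatase that binds Contactin-1 and is abundant in glia, went from 151 ± 14.5 to 22.9 ± 0.920 CPM, and Tnr, the matrix protein tenascin-R made by oligodendrocytes and some neurons, from 83.7 ± 16.5 to 13.4 ± 2.04 CPM. Notch1, a receptor for Contactin-1 in oligodendrocyte precursors and a progenitor gene, had 597 and 566 counts with DMSO and 0 and 2 with topotecan, a ratio of 638 after scaling (exact 95% counting interval from 176 to 5273). In the same libraries the summed oligodendrocyte markers were between 123 and 136 CPM in topotecan and at least 4059 CPM in DMSO. The part of that loss in these 3 values, and in that of Nfasc, was not tested. Ptprg, the phosphatase bound by Cntn3, Cntn4, Cntn5 and Cntn6, had a log2 fold change of -1.32 (SE 0.17). App, the amyloid precursor and a ligand of Cntn4, fell by 0.70 on the log2 scale (SE 0.07). Aplp1, its short relative, rose by 0.52 (SE 0.08) and did not pass with scaling to short neuronal genes. Ptpra was at -0.16 and did not pass.

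Among genes for intracellular partners 9 of 13 tested fell, beside 23.5% of all tested genes, and none rose (median log2 fold change -0.70). Fyn, the Src family kinase that signals below contactins, fell by 0.70 on the log2 scale (SE 0.11). Epb41l3, the skeleton linker that binds the tails of Caspr and Caspr2, was at -0.51 on the log2 scale (SE 0.10), and Epb41l2, its relative found in glia too, at -4.29 (SE 0.11). Ank2, an ankyrin of the axon, was at -1.17 (SE 0.12) and Dlg2, a scaffold of Kv1 channels, at -0.99 (SE 0.11). Dlg4, Mpdz, Cask and Nck1 did not pass. By span, 7 of its 9 genes from 100 kb upward fell, beside 43.5% of all such genes, and 2 of its 4 shorter ones.

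Of 11 tested genes of the Kv1 channels and their associated proteins, which the Caspr2 complex holds in place, 4 fell, beside 23.5% of all tested genes, and none rose (median log2 fold change -0.43). With scaling to short neuronal genes 8 fell, and with DESeq2 1 did. The only channel gene among the 4 was Kcna1, a pore subunit held at the juxtaparanode by Caspr2, with a value of -0.43 (SE 0.16, adjusted p = 0.042 in edgeR). The others code for secreted Lgi proteins and a membrane receptor of them, Lgi3 (-1.49), Lgi2 (-0.66) and Adam23 (-0.58). The values of Kcna2 and of the beta subunit gene Kcnab2 were -0.75 (SE 0.31) and -0.30 (SE 0.12), and neither passed, nor did Kcna4 (0.16) or Lgi1 (-0.11). Of 5 tested sodium channel genes of the axon 3 fell and none rose, with 2 of the 3 of 100 kb or more lower, beside 43.5% of all such genes. Those that fell were Scn2a (-0.63, SE 0.09), Scn8a (-0.86, SE 0.18) and Scn2b (-0.64, SE 0.12), with Scn3a at 0.04.

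The list for the myelin side of these junctions fell in all 5 tested members (median log2 fold change -4.46), and these 5 are also on the oligodendrocyte list. For the enzymes that attach the GPI anchor of contactins, 1 of 8 tested genes, Pigs, was lower (log2 fold change -0.26, SE 0.08, edgeR adjusted p = 0.020) and none was higher, beside 23.5% and 16.2% of all tested genes, with a median of -0.07. Pigs passed neither without topotecan replicate 1 nor without topotecan replicate 2.

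**Figure D5:**
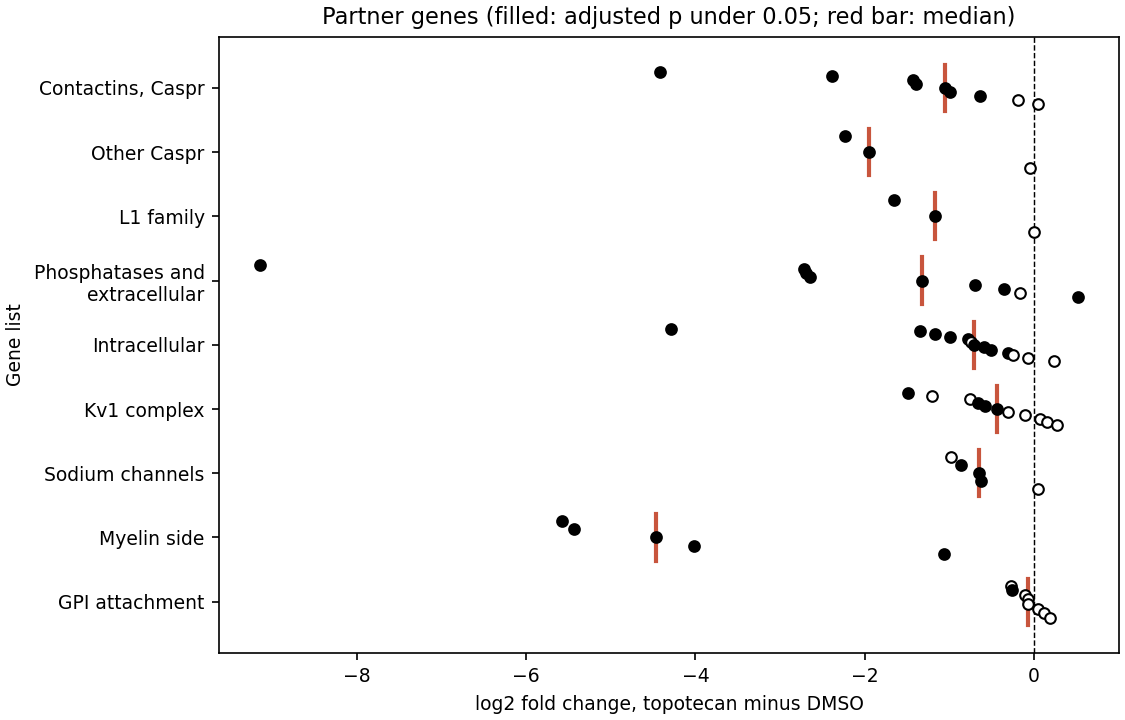
Log2 fold change (topotecan minus DMSO) of every tested gene of the 9 members and of 8 partner lists, with 1 point per gene (filled if adjusted p under 0.05) and a red bar at each list's median. The medians lie between -4.46 for the myelin side and -0.07 for GPI attachment, and the 9 members have a median of -1.04.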

How the data were processed

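The authors deposited 1 table of gene counts for 4 libraries, with Ensembl identifiers, symbols and biotypes. The submitters' processing notes name STAR and edgeR without versions. The genome build, annotation, counting tool and strand use were not given in the sources used here. A small RNA kit is named in the labels' protocols, while between 96.3% and 97.0% of the deposited counts belong to protein-coding genes, and the library type is uncertain. Of 22641 rows, repeats of 792 identifiers with identical counts were dropped, which left 21648. Groups and replicate numbers come from the titles. Replicates differed by more than sampling noise (chi-square per degree of freedom 13.0 in DMSO and 9.34 in topotecan).

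Counts were tested with edgeR 4.0.16 (R 4.3.3): TMM, filterByExpr (minimum count 10, total 15), treatment as the only term, quasi-likelihood F-test, Benjamini-Hochberg adjustment over 12162 genes, threshold 0.05. A gene below that minimum throughout either group was tested only through its counts in the other, so its call could go only toward that group. SE is the log2 fold change over the square root of F, and 95% intervals use the fit's degrees of freedom. The fit was tested on simulated data with the same spread for all genes, a simpler setting that does not show how the fit does on these data. Spans and promoter windows are from RefSeq (GRCr8). Spans covered 96.8% of tested genes. Alternatives were 2 filters, 3 scalings, DESeq2 1.42.0, limma-voom (limma 3.58.1), a replicate block and each library left out.

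The members and gene lists were chosen with earlier results of these data known. All 9 members are named. Partner lists may be named by gene, marker lists by the 2 genes with the most counts, not corrected for length (other markers named were chosen after their values were seen), and the 3 genes most like Cntn1 and Cntnap2 by distance of log2 CPM over 4 libraries.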

Additional observations from a re-analysis of the deposited data

How the results depend on the processing

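Of 108 member values under 12 alternatives, 100 kept direction and call, and 7 of the 9 genes kept both throughout. The exceptions were Cntnap1 and Cntn2. Cntnap1 had log2 fold changes of -0.63 with RLE scaling (adjusted p = 0.051) and -0.62 with DESeq2 (0.17), and did not pass in either. With 1 library left out its values ran from -0.95 to -0.35. Cntn2, never called, was at -0.25 with scaling to short neuronal genes, and with 1 library left out ran from -0.013 to 0.12. The members lower in topotecan numbered 6 or 7 with 1 library left out, where the lone sample of a group is assumed to vary like the others, and none was higher. The cause of these changes was not tested. Over all genes, scaling to short neuronal genes gave 4383 lower and 266 higher in place of 2854 and 1970. With 1 library left out the higher genes ran from 1208 (without topotecan replicate 1) to 2470, with 1260 without topotecan replicate 2. With the replicate block, 2746 were lower and 1822 higher, and 7 members were lower. Same-numbered libraries did not deviate together (r = -0.06 across genes). With 2 libraries per group this cannot decide whether the numbers pair the samples, and the labels do not say. Of 192 partner-list counts, 8 moved by over 1.5 times. Few counts limit Cntnap2 in topotecan and Cntnap1 throughout.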

Other observations

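The genes whose profiles over the 4 libraries were closest to those of 2 members are given as a description. Distance is Euclidean, over log2 CPM (pseudocount 0.5) relative to the DMSO mean together with that mean, so it joins level and change. Closest to Cntn1 were Chn1 (distance 0.289), a signalling gene of axon guidance that went from 334 ± 20.6 to 189 ± 15.04 CPM (SD, n = 2 each), Asrgl1 (0.302) and Sptbn1 (0.318). Sptbn1, a spectrin of the axonal skeleton, was also on the list of intracellular partners, and went from 311 ± 41.9 to 182 ± 0.956 CPM. Closest to Cntnap2, the member with the lowest log2 fold change, were Fam19a4 (0.152), with 72 and 82 counts in DMSO and 4 in each topotecan library, Dab2 (0.239) and Ptgds (0.246). In both topotecan libraries Cntnap2, Fam19a4, Dab2 and Ptgds were below the pseudocount of 0.5 CPM, so the distance tells little about how far each fell. Ptgds spans 2.94 kb and Fam19a4 234 kb, beside 2257 kb for Cntnap2.

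In the RefSeq map 7 of the 9 members overlap at least 1 other annotated gene, most of these noncoding or pseudogenes. The 2 without such an overlap, Cntn6 and Cntnap4, had log2 fold changes of -1.40 and -1.04.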
